A study of Mus musculus with 10 samples.

Results

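The 8 genes described here encode complement components and a complement regulator: the C1q chains C1qa, C1qb and C1qc, the protease C1ra, the components C3, C4b and Cfb, and the C1 inhibitor Serping1. They were taken by symbol from the 32531 genes of each count table, and all 8 were found. The series measured ribosome-bound RNA in cortex after short-access intravenous self-administration of cocaine. The adult mice were of the S100a10-EGFP/Rpl10a line ES691, in which S100a10 regulatory sequences drive an EGFP-tagged ribosomal protein. Tagged polysomes were pulled down from cortex homogenate with anti-EGFP antibodies, a method called translating ribosome affinity purification, and the bound RNA was sequenced. The 9 immunopurified (IP) libraries comprised 3 of mice self-administering saline, 3 of mice self-administering cocaine and 3 of yoked controls, and 1 library of the saline input was made alongside. All groups carry the same transgene, and the labels list neurons as the cell type of every library. The labels leave out what the yoked mice received, the drug dose, the number of mice behind a library and whether libraries of a group came from different mice, and p-values therefore measure the spread among these samples alone, which may be technical.

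Complement is a cascade of plasma and tissue proteins that tags surfaces for removal. In the classical pathway C1q binds a target and activates the proteases C1r and C1s, which cleave C4 and C2 to form an enzyme that splits C3. Factor B (Cfb) forms the corresponding enzyme of the alternative pathway, and the C1 inhibitor (Serping1) blocks C1r and C1s. In brain C1q is known as a product of microglia and has been linked to the removal of synapses, whereas the C1 inhibitor is abundant in connective tissue cells such as those of the meninges.

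Gene counts came to between 38653752 and 50898401 per IP library and 69974908 in the input. The transcript of S100a10, the gene whose regulatory sequences drive the tag, was 6.66-fold higher in saline IP than in input (adjusted p = 7.52e-05). Markers of excitatory neurons summed to between 3119 and 4575 CPM (counts scaled to 1000000 reads) in IP and 4273 CPM in input, whereas 14 markers of meningeal fibroblasts summed to between 1448 and 2307 CPM in IP and 80.2 CPM in input. The library names place each group on a sequencing lane of its own, and lane cannot be told apart from group. The 3 IP libraries named Rep3 differed from the other IP libraries in 2601 of 16642 genes tested, 15.6%, and member values between groups are also given without them where they moved most.

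The C1q genes lie side by side on the minus strand of chromosome 4 (GRCm38): C1qb at 136880129 to 136886187, C1qc at 136889804 to 136893065 and C1qa at 136895917 to 136898803. Only 3616 bases separate C1qb from C1qc, and 2851 bases separate C1qc from C1qa. The bases upstream of C1qb and C1qc are shown because these neighbouring genes were lower in every IP library than in the input. Their order among the IP libraries differed otherwise, and yoked replicate 1 was lowest for both. The sequences are from RefSeq on build GRCm38.p6. For C1qc the RefSeq start lies inside the gene as GENCODE M21 annotates it, so the 250-base window was shortened to the 99 bases upstream of the GENCODE start. Capitals mark GAGGAA on either strand, a core bound by ETS factors such as the myeloid factor PU.1.

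C1qb, chr4:136886201-136886450, minus strand: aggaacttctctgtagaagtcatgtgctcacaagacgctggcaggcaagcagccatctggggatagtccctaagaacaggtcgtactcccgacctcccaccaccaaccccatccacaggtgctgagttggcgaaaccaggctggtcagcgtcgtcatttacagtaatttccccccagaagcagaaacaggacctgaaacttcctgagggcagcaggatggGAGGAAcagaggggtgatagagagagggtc
C1qc, chr4:136893066-136893164, minus strand: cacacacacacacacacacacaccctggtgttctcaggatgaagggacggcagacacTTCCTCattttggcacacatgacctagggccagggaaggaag

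In the 250 bases upstream of the RefSeq start, C1qb and C1qc each held 1 such match, 30 and 193 bases before that RefSeq start, and C1ra and C3 held 0. The same window held a match in 23.3% of 32851 promoters, so a match is a description of these letters and marks no binding site. The other 4 members were not matched in the promoter table.

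All 3 C1q transcripts were lower in every IP library than in the input. C1qa, the A chain, stood at 1.35, 0.971 and 1.12 CPM in saline IP replicates 1 to 3, at 1.40, 0.657 and 0.899 CPM in cocaine, at 0.389, 0.823 and 1.85 CPM in yoked, and at 2.11 CPM in the input. C1qb, the B chain, stood at 2.32, 2.39 and 3.63 CPM in saline, at 2.81, 2.85 and 2.49 CPM in cocaine, at 0.596, 3.24 and 2.64 CPM in yoked, and at 5.47 CPM in the input. C1qc, the C chain, stood at 1.87, 2.03 and 1.81 CPM in saline, at 2.99, 1.73 and 2.19 CPM in cocaine, at 0.856, 2.09 and 2.42 CPM in yoked, and at 4.12 CPM in the input. Yoked replicate 1 was the lowest of the 9 IP libraries for each chain, and the IP groups overlapped for each. The input levels rest on 141, 366 and 276 reads, and their exact (Clopper-Pearson) 95% intervals, which cover counting error only, were 1.77 to 2.48, 4.92 to 6.06 and 3.65 to 4.64 CPM. Every IP value of C1qb and C1qc lay below these intervals, while the highest of C1qa, in yoked replicate 3, lay within. Of all genes tested against input, 22.5% had all 9 IP libraries below it.

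**Figure D1:**
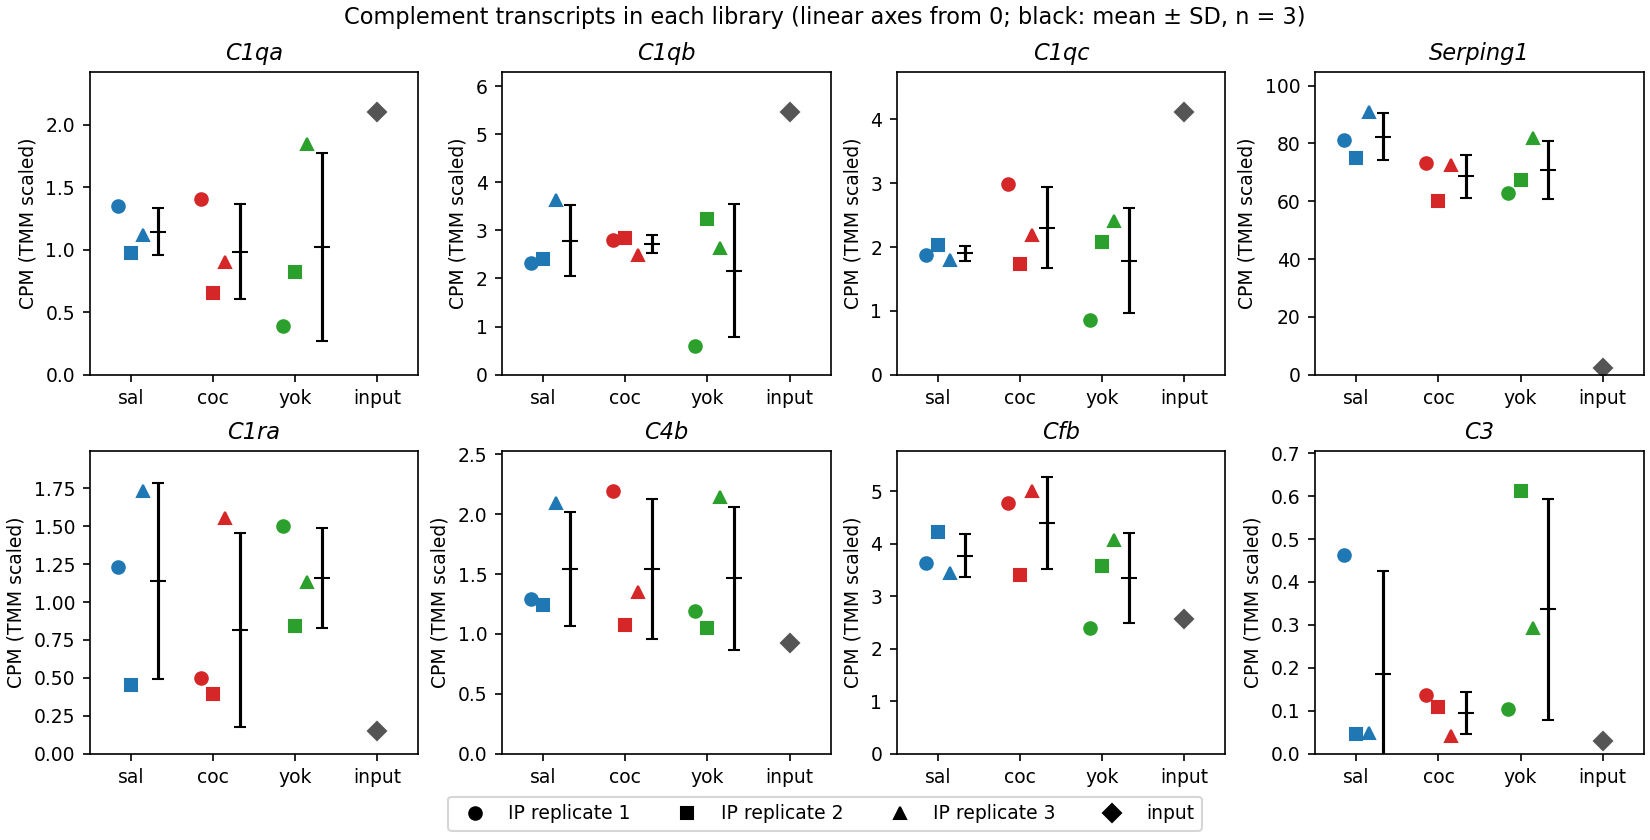
Levels of the 8 members in each library, as CPM scaled by TMM factors on linear axes from 0, with 1 point per library and black bars for mean ± SD of 3 IP libraries (the bar of C3 in saline is clipped at 0). The C1q chains are lower in all 9 IP libraries than in the input, Serping1 is at 60.1 to 91.0 CPM in IP against 2.33 CPM in the input, and yoked replicate 1 is lowest for each C1q chain.

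In the test of saline IP against input, a fit in which the single input is assumed to vary like the IP libraries, no C1q chain passed. C1qa had a log2 fold change (log2FC) of -0.88 ± 0.68 (SE; adjusted p = 0.474), C1qb of -0.98 ± 0.59 (adjusted p = 0.339) and C1qc of -1.11 ± 0.48 (adjusted p = 0.167). C1qc had an unadjusted p of 0.0378 in that edgeR fit. With it 3 of the 8 members had an unadjusted p under 0.05, where 25.1% of all genes did. The direction was the same in each of the 17 alternatives tried for every chain.

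Most microglial transcripts were below the input as well. The 3 C1q chains together made 5.54, 5.40 and 6.56 CPM in saline IP, 7.20, 5.23 and 5.58 CPM in cocaine, 1.84, 6.15 and 6.91 CPM in yoked, and 11.7 CPM in the input. Of 15 microglial markers, 4 had a log2FC above 0 and 3 were called lower in saline IP than in input: the receptors Cx3cr1 (log2FC -1.77 ± 0.51), P2ry12 (-1.96 ± 0.41) and P2ry13 (-2.54 ± 0.73). A further 2, Tmem119 (1.77 ± 0.38) and the secreted protein Olfml3 (3.13 ± 0.45), were called higher. The list's median was -1.04, against 0.02 for all genes tested, of which 11.3% were called (4.26% lower). A level in IP against input depends on how much of a transcript was pulled down with the tagged ribosomes. It therefore measures neither the number of cells of a type in cortex nor their RNA per cell. The cause of the lower values was not tested.

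The 15 markers summed to between 62.4 and 99.0 CPM in IP and 73.7 CPM in input, and each was detected in every library. Per 1000 CPM of all 15, C1q stood at 159 CPM in the input, 29.5 CPM in yoked replicate 1 and 67.2 to 104.9 CPM in the other IP libraries. The C1q sum was thus lower in IP relative to the full marker list. Tmem119 and Olfml3, the markers called higher, made up much of the IP sum. Without them, a choice made after their values were seen, the other 13 markers summed to between 22.6 and 42.5 CPM in IP and 66.2 CPM in the input. Per 100 CPM of these 13 markers, C1q stood at 17.5, 16.7 and 17.6 CPM in saline, 17.8, 14.8 and 15.4 CPM in cocaine, 8.15, 16.0 and 16.3 CPM in yoked and 17.7 CPM in the input. The gap between IP and input on the full list was not seen on the trimmed list, apart from yoked replicate 1. The markers called lower were kept, so leaving out only those called higher had to narrow the gap. The level of C1q relative to microglial markers thus depends on the markers summed. No conclusion is drawn from the trimmed list. In yoked replicate 1 only 71 reads fell on the 3 chains, against 239 to 321 in the other IP libraries, and 6 of the 15 microglial markers were also lowest there.

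**Figure D2:**
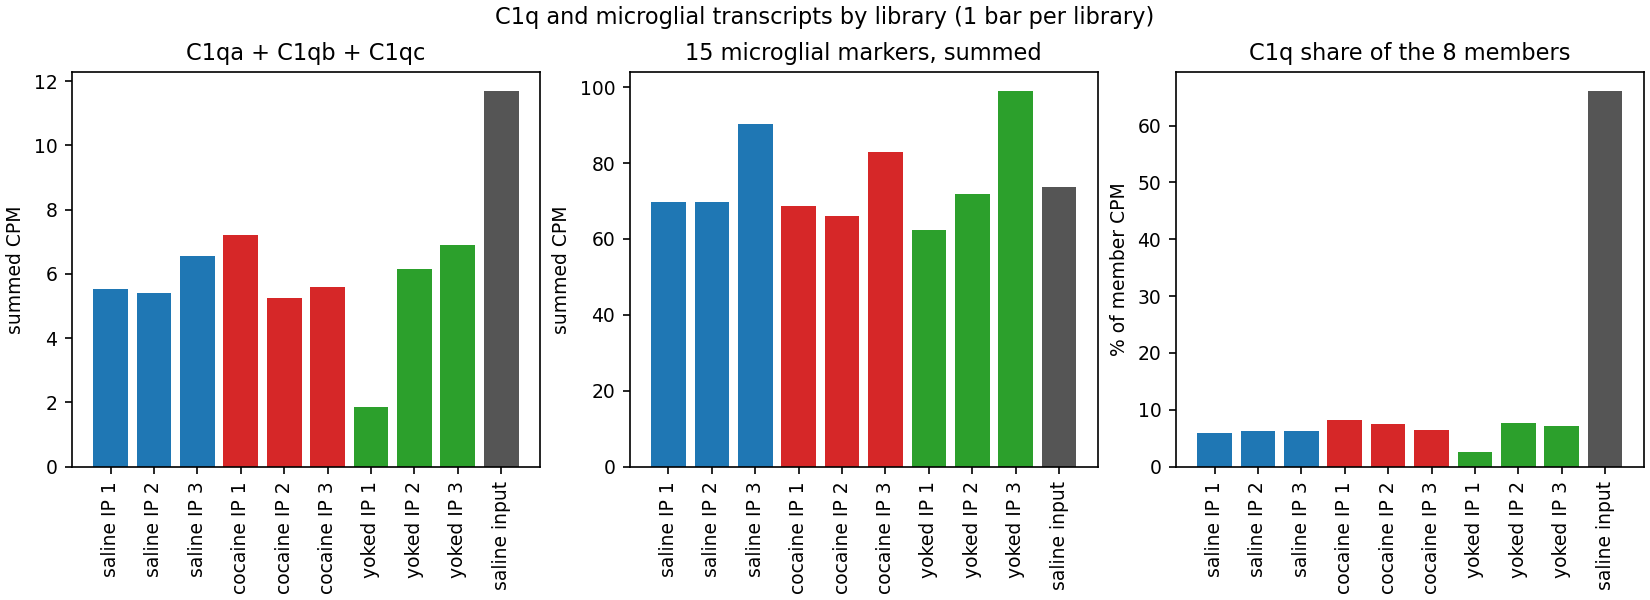
Summed CPM of the 3 C1q chains (left), summed CPM of 15 microglial markers (middle) and the C1q share of the CPM of all 8 members (right), with 1 bar per library. C1q takes 66.1% of the member CPM in the input and 2.64% to 8.17% in the IP libraries, and yoked replicate 1 is the lowest IP library in all 3 panels.

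Serping1 stood apart from the other members. The gene (chromosome 2, 84765387 to 84775444, minus strand) encodes the protease inhibitor that blocks C1r and C1s. It was at 81.2, 74.8 and 91.0 CPM in saline IP, at 73.3, 60.1 and 72.7 CPM in cocaine, at 62.8, 67.4 and 82.0 CPM in yoked, and at 2.33 CPM (156 reads) in the input. It was the 1 member called in saline IP against input, with a 35.3-fold difference (log2FC 5.14 ± 0.32, adjusted p = 8.59e-07 in edgeR), where 11.3% of all genes were called and 7.07% were called higher. Its log2FC ranged from 5.06 to 5.18 over the 17 alternatives, and it was called in each.

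All 14 meningeal fibroblast markers also rose in that comparison, with a median log2FC of 4.59 and values from 3.45 to 5.07. Per 1000 CPM of those markers, Serping1 stood at 37.8, 44.2 and 41.4 CPM in saline IP, 46.4, 41.5 and 34.1 CPM in cocaine, 36.5, 42.7 and 35.5 CPM in yoked and 29.1 CPM in the input. Other lists also held genes called higher in saline IP, where 7.07% of all genes were. Of 10 interferon-response genes 8 were called higher, with a median log2FC of 3.65. Of 10 mural cell markers 4 were called higher (median 0.27), and of 10 endothelial markers 3 (median 1.28). In the interferon, mural cell and endothelial lists 0 genes were called lower. Of 6 monocyte and neutrophil genes tested 2 were called higher (median 2.51), and of 6 choroid plexus markers 1 (median -0.76), with 0 lower in either list. Astrocyte markers went both ways, with 2 of 10 called higher and 3 lower (median -0.75), as did the microglial markers given above. The part of any of these cells, or of an interferon response, in the Serping1 level was not tested. The genes with the profile closest to Serping1 over the 10 libraries, by root mean square difference of centred log2 CPM, were Mgp (0.11), Osr1 (0.14), Anxa8 (0.17), Ogn (0.17) and Cox6b2 (0.18). The distance between Serping1 and the C1q chains was 1.87 for C1qa, 1.95 for C1qb and 1.86 for C1qc, while the chains lay 0.32 to 0.51 from each other. These profiles include the single input, so the differences between IP and input given above weigh heavily in the distances. They are no separate result.

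**Figure D3:**
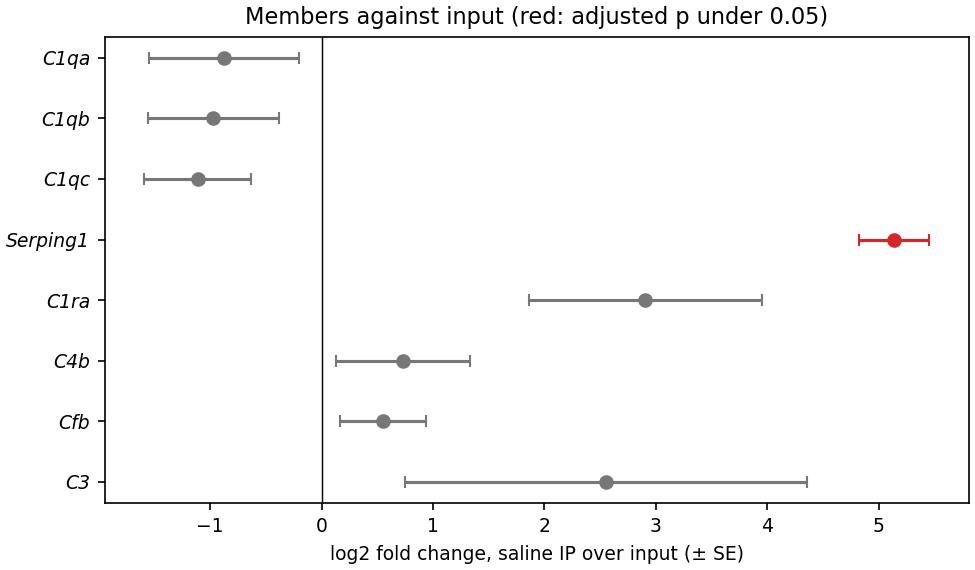
Log2 fold change of each member in saline IP over input, with SE from the edgeR fit of all 10 libraries. Serping1 is the 1 member called (5.14 ± 0.32), the 3 C1q chains lie between -1.11 and -0.88, and C1ra and C3 have wide errors.

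C1ra (chromosome 6, 124512405 to 124523443, plus strand), the C1r protease, was higher in all 9 IP libraries than in the input but varied widely among them. So were Serping1, C3 and C4b, and 21.5% of all genes had all 9 IP libraries above the input. It was at 1.23, 0.452 and 1.73 CPM in saline IP, at 0.498, 0.394 and 1.55 CPM in cocaine, at 1.504, 0.842 and 1.13 CPM in yoked, and at 0.149 CPM (10 reads) in the input. The log2FC in saline IP was 2.91 ± 1.04 and missed the threshold (adjusted p = 0.0935). It passed without saline replicate 2 (3.26, adjusted p = 0.0493) and with DESeq2 (2.92, adjusted p = 0.0215), with adjusted p from 0.0215 to 0.154 over the 17 alternatives. Its near-identical neighbour C1rb had at most 1 read in a library. Reads that align to more than 1 place are listed apart in the files and were assigned to no gene, so the level of C1ra is uncertain.

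The partner protease C1s1, whose gene lies on the opposite strand with its 3′ end 6901 bases from the end of C1ra, showed a like pattern among IP libraries. It was at 0.322, 0.113 and 1.33 CPM in saline, at 0.0679, 0.241 and 1.41 CPM in cocaine, at 1.76, 0.306 and 0.564 CPM in yoked, and at 0.373 CPM in the input. Saline replicate 3, cocaine replicate 3 and yoked replicate 1 were the highest libraries for both genes. Unlike C1ra, C1s1 was below the input in 5 of 9 IP libraries (log2FC 0.65 ± 1.49, adjusted p = 0.848).

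The C4 gene C4b and factor B lay close to the input. C4b (chromosome 17, 34728380 to 34743882, minus strand) was at 1.29, 1.24 and 2.09 CPM in saline, at 2.20, 1.07 and 1.35 CPM in cocaine, at 1.19, 1.05 and 2.14 CPM in yoked, and at 0.926 CPM in the input. It was above the input in 9 of 9 IP libraries, but cocaine replicate 2 and yoked replicate 2 lay within the input's counting interval of 0.71 to 1.19 CPM, and the log2FC was 0.73 ± 0.60 (adjusted p = 0.506). C4a, a close copy of C4b, had 0 to 4 reads per IP library and 11 in the input, and the level of C4b is uncertain for the same reason as that of C1ra.

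Cfb (chromosome 17, 34856374 to 34862518, minus strand) was at 3.63, 4.22 and 3.44 CPM in saline, at 4.78, 3.39 and 5.01 CPM in cocaine, at 2.39, 3.58 and 4.06 CPM in yoked, and at 2.57 CPM in the input. Yoked replicate 1 was the only IP library below the input, and the log2FC in saline was 0.55 ± 0.39 (adjusted p = 0.421). The annotation places a protein-coding readthrough gene, Gm20547, over Cfb on the same strand, and the labels do not give the gene set used for counting. C2, the Cfb homologue of the classical pathway whose gene lies 85 bases away, was called higher in saline IP. Its saline IP level was 10.99 ± 0.899 CPM (SD, n = 3) against 1.21 CPM in the input, and the log2FC was 3.18 ± 0.43 (edgeR adjusted p = 0.000302). Gm20547 covers part of C2 as well, so the levels of both genes carry the same limit.

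C3 (chromosome 17, 57203970 to 57228136, minus strand), the central component on which the pathways converge, was barely detected. It had 23, 2 and 2 reads in saline IP, 6, 5 and 2 reads in cocaine, 4, 32 and 13 reads in yoked, and 2 reads in the input. The 2 libraries with most reads, yoked replicate 2 and saline replicate 1, were at 0.613 and 0.464 CPM. The log2FC of 2.55 ± 1.81 against input did not pass (adjusted p = 0.425), rests on 2 input reads (0.0299 CPM, exact 95% interval 0.00362 to 0.108 CPM) and was 0.59 without saline replicate 1. Saline replicates 2 and 3, at 0.0452 and 0.0475 CPM, lay within that interval.

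Per kilobase of exon the order of the members differed between IP and input. In saline IP, Serping1 led with 35.41 ± 3.501 CPM per kb (SD, n = 3), followed by C1qb at 2.56 ± 0.679, Cfb at 1.33 ± 0.144, C1qa at 1.10 ± 0.184, C1qc at 0.986 ± 0.0606, C1ra at 0.382 ± 0.217, C4b at 0.271 ± 0.0836 and C3 at 0.0361 ± 0.0468. Cfb, C1qa and C1qc overlapped with their neighbours in this order, as did C1ra and C4b. In the input C1qb led with 5.02 CPM per kb, ahead of C1qc at 2.135, C1qa at 2.025, Serping1 at 1.002 and Cfb at 0.909 CPM per kb. C4b at 0.163, C1ra at 0.0501 and C3 at 0.00581 CPM per kb closed the order there.

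The rest of the complement system was followed with a list of 49 other genes, of which 33 could be tested against input. In saline IP 5 rose and 1 fell, and their median log2FC was -0.06, against 0.02 for all genes, of which 7.07% were called higher and 4.26% lower. Among 4 tested soluble regulators vitronectin (Vtn), which blocks the membrane attack complex, rose, at 124 ± 24.4 CPM against 9.04 CPM in input (log2FC 3.77 ± 0.45). Clusterin (Clu), another inhibitor of that complex, was at 124 ± 21.7 CPM in saline IP and 123 CPM in input (0.01 ± 0.26, adjusted p = 0.991).

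Of 7 tested genes of the classical and lectin pathways 2 rose, C2 and the collectin Colec12 (52.1 ± 10.1 against 2.73 CPM; 4.25 ± 0.43). The lectin-pathway protease Masp1 was at -0.32 ± 0.29 (adjusted p = 0.554). Of 9 membrane regulators Cd55, which speeds the decay of the C3-splitting enzymes, rose (18.0 ± 0.507 against 4.97 CPM; 1.86 ± 0.30), and the neuronal protein Csmd3, which resembles complement regulators, fell (9.68 ± 2.63 against 29.7 CPM; -1.62 ± 0.28). Among 2 tested terminal genes C8g rose (2.19 ± 0.514 against 0.597 CPM; 1.87 ± 0.51, adjusted p = 0.0301). Neither properdin (Cfp), which stabilises the alternative-pathway enzyme, nor Hc, which encodes C5, nor any of 9 receptor genes passed in edgeR, with 1 of the receptor genes at an unadjusted p under 0.05. The C3a receptor C3ar1 was at -0.30 ± 0.75 and Itgam, a chain of complement receptor 3, at -0.30 ± 0.66, while Itgb2, the chain paired with Itgam, was at 1.96 ± 0.86 (adjusted p = 0.176, unadjusted p = 0.041).

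**Figure D4:**
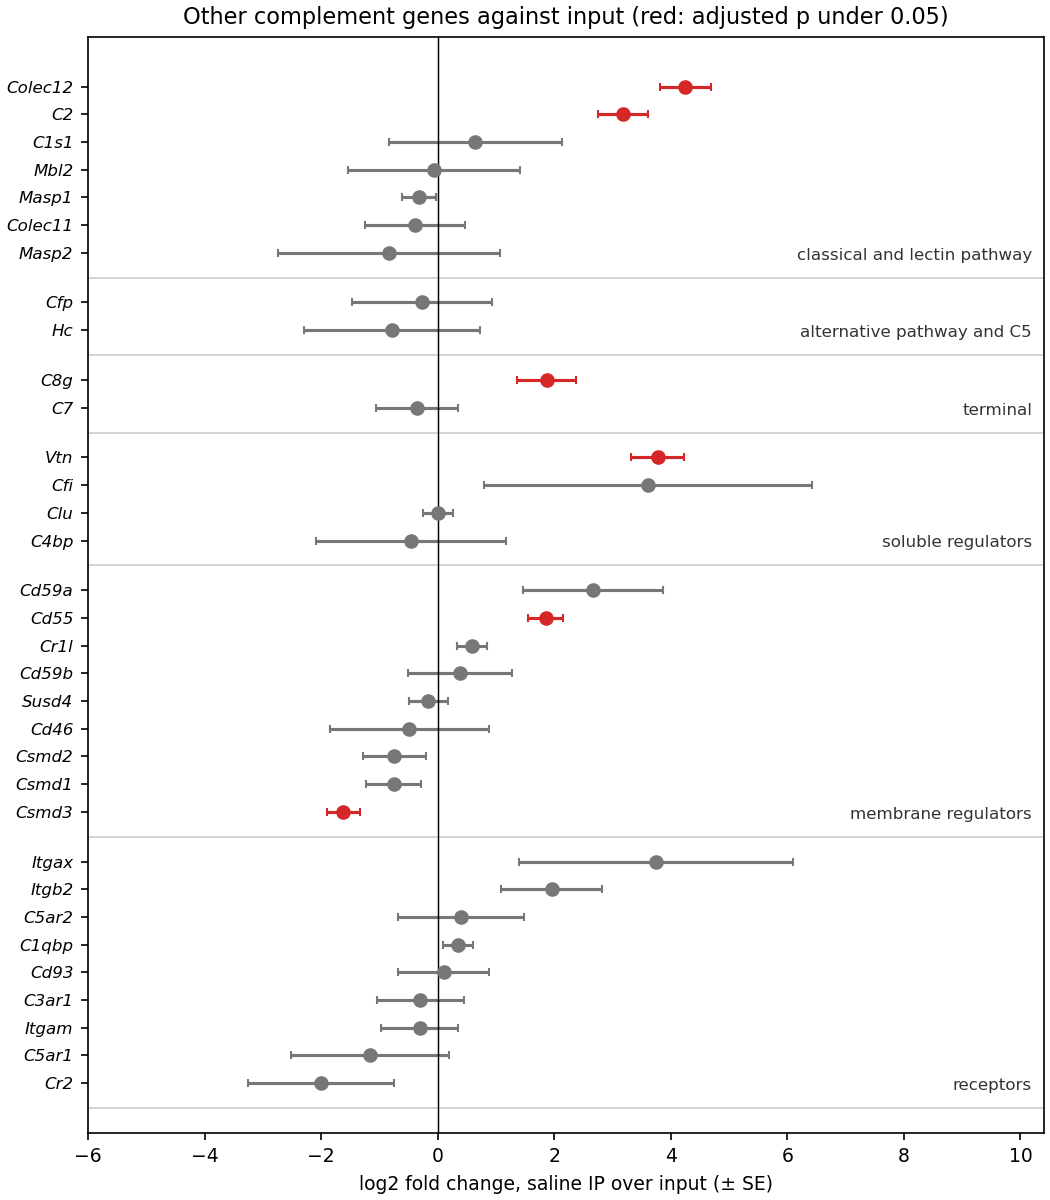
Log2 fold change in saline IP over input for the 33 tested complement genes outside the 8 members, grouped by role, with SE. Of these, 5 rose (Colec12, Vtn, C2, C8g and Cd55), Csmd3 fell, and the receptors show no call.

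Between the treatment groups no member was called. Cocaine against saline and yoked against saline share the saline libraries, and cocaine against yoked shares both others, so their values are not independent. In each of the 3 comparisons, and in the joint test of any difference, 0 of 8 members passed in edgeR, 0 passed in DESeq2 and 0 had an unadjusted p under 0.05. The background was 0% of 16642 genes called in each, with an unadjusted p under 0.05 in 3.18% of genes in cocaine against saline, 2.39% in yoked against saline, 0.955% in cocaine against yoked and 1.61% in the joint test. Of the 27 other complement genes tested between IP groups, 0 were called in edgeR in these comparisons, with 1, 0 and 0 at an unadjusted p under 0.05.

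The C1q chains showed no common direction in cocaine against saline. In cocaine the log2FC was -0.23 ± 0.52 for C1qa, -0.04 ± 0.46 for C1qb and 0.26 ± 0.38 for C1qc. In yoked it was -0.17 ± 0.52, -0.36 ± 0.46 and -0.09 ± 0.38 in the same order, and each of these differences was smaller than its SE. Those yoked values turned to 0.21, 0.07 and 0.23 without yoked replicate 1, the library with the fewest C1q reads, and stood at -0.93, -0.28 and -0.40 without the 3 Rep3 libraries.

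Serping1 was the 1 member whose cocaine and saline libraries did not overlap, with a highest cocaine value of 73.3 CPM and a lowest saline value of 74.8 CPM. The means were 68.7 ± 7.45 CPM in cocaine and 82.3 ± 8.14 CPM in saline (SD, n = 3 each), a log2FC of -0.27 ± 0.15 (edgeR adjusted p = 0.99). Of all genes tested, 8.97% had cocaine and saline libraries that did not overlap, in either direction. In yoked it was at 70.7 ± 10.02 CPM (-0.23 ± 0.15 against saline). In yoked against saline and in cocaine against yoked 0 members had groups that did not overlap, where 6.08% and 4.74% of all genes had. Of the meningeal fibroblast markers 1 of 14 had a log2FC above 0 in cocaine against saline, with a median of -0.23 and 0 called in edgeR. The 10 interferon-response genes had 1 above 0 and a median of -0.44. Mural cell markers had 5 of 10 above 0 (median 0.05) and endothelial markers 6 of 10 (median 0.03). The median of all genes was -0.02, and 0 genes of these lists were called in edgeR. The part of those cells, or of an interferon response, in the Serping1 difference was not tested.

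Among the remaining members C3 varied most. It had a log2FC of -0.99 ± 1.01 in cocaine against saline, which turned to 0.99 without saline replicate 1. In cocaine against yoked it was -1.83 ± 0.99 (unadjusted p = 0.0887), the lowest unadjusted p of a member in that comparison, from 2 to 6 reads in cocaine and 4 to 32 in yoked. C1ra was at -0.49 ± 0.59 in cocaine and 0.02 ± 0.59 in yoked, C4b at -0.01 ± 0.41 and -0.08 ± 0.41, and Cfb at 0.21 ± 0.26 and -0.18 ± 0.27, each against saline. Without the 3 Rep3 libraries C1ra was at -0.93 in cocaine and 0.46 in yoked against saline, and at -1.39 in cocaine against yoked in place of -0.50. On the same terms C4b was at 0.35 and -0.18 and Cfb at 0.04 and -0.40 against saline, and C4b was at 0.53 in cocaine against yoked in place of 0.07.

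**Figure D5:**
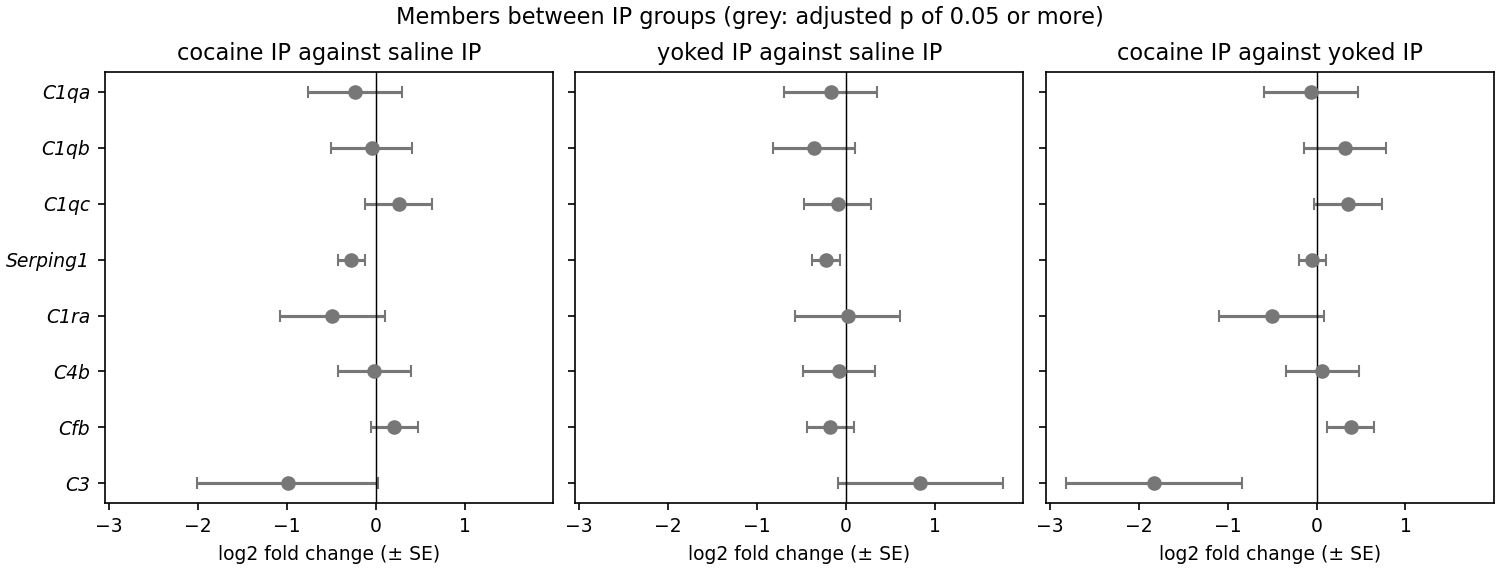
Log2 fold changes of the 8 members between IP groups, with SE from the edgeR fit of the 9 IP libraries. None is called, Serping1 has the smallest error (0.15) and C3, with 2 to 32 reads in an IP library, the largest.

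Across replicate numbers, no member was called in the Rep3 libraries against the Rep1 and Rep2 libraries either (0 of 8 in edgeR and in DESeq2, with 1 at an unadjusted p under 0.05 in edgeR, C1ra), where 9.38% of all genes were called higher, 6.25% lower and 29.1% had an unadjusted p under 0.05. C1ra had a log2FC of 1.02 ± 0.41 (adjusted p = 0.102), and Serping1 of 0.22 ± 0.11 (adjusted p = 0.198). The C1q chains were at 0.49 ± 0.45, 0.35 ± 0.34 and 0.17 ± 0.33 for C1qa, C1qb and C1qc. C4b was at 0.49 ± 0.33 and Cfb at 0.18 ± 0.23, while C3 went the other way at -1.20 ± 0.89 (adjusted p = 0.404). Meningeal fibroblast markers had 7 of 14 called higher in Rep3 and a median of 0.38. Endothelial markers had 5 of 10 called higher (median 0.59) and mural cell markers 2 of 10 (0.26). Microglial markers had 3 of 15 higher and 1 lower (0.29). Called lower were 5 of 8 oligodendrocyte (-0.85), 4 of 6 interneuron (-1.09) and 3 of 10 astrocyte markers (-0.17).

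Outside the members, the genes closest to the mean C1q profile over the 10 libraries were Lnp (root mean square difference 0.21), Gpr155 (0.23), AK081464 (0.23), Reln (0.25) and Ptchd2 (0.29). For C4b they were Enpp2 (0.22), Syt12 (0.23), Ctsa (0.24), Slc25a35 (0.24) and Zfp628 (0.24). The search covered 12927 genes whose average log2 CPM was 1 or more. Microglial markers with few reads, such as Gpr34, Fcrls and Trem2, fell below that minimum, while Tmem119 and Olfml3 were searched. Here too the single input enters each distance. Among the members, C4b and Cfb lay 0.38 apart.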

How the data were processed

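The authors deposited raw counts of reads for each gene symbol, with a separate table for every library. Per the submitters' processing notes, reads were handled with STAR 2.0.0e and HTSeq on build mm10, and neither the strand setting nor the gene set is stated. Each holds 6 entries that name no gene, which were left out (47.4% to 54.5% of reads, mostly reads aligned to more than 1 place).

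Counts were tested with edgeR 4.0.16 (R 4.3.3) by its quasi-likelihood test, with TMM factors, filterByExpr (minimum count 10), Benjamini-Hochberg adjustment over all genes tested and calls at an adjusted p under 0.05. Saline IP was tested against input using all 10 libraries together (18437 genes) and IP groups in a fit of the 9 IP libraries (16642 genes). CPM carry the TMM factors of the 10-library fit. Alternatives were DESeq2 1.42.0, other scalings and filters, a replicate block and leaving out libraries. The scripts were tested on simulated data. Coordinates and exon lengths are from GENCODE M21 (GRCm38). Libraries of a group differed far beyond counting noise (chi-square per degree of freedom 32.8 to 114).

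All 8 members are named, the other complement genes when called in a comparison or highest in CPM for their role (C1s1, Masp1, C3ar1, Itgam, Itgb2 and Hc were chosen after their values were seen), and nearest patterns as the 5 closest genes. A gene of the complement list is not reported here. Members and lists were chosen with earlier results of these data known. Adjusted p are edgeR's unless DESeq2 is named.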

Additional observations from a re-analysis of the deposited data

How the results depend on the processing

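Serping1 against input was the member called under each alternative. The count of members called there was 1, and 1 to 2 when single libraries were left out. It was 2 with DESeq2, through C1ra. Without the 3 Rep3 libraries, an alternative chosen after seeing the data, 3442 genes in all were called against input in place of 2089, and 1 member. Between IP groups and for Rep3, 0 members were called in all alternatives run. Across single libraries left out, the number of genes called for Rep3 was 1088 to 3535, with 1342 without saline replicate 2 and 1188, 1163 and 1088 without replicate 3 of saline, cocaine and yoked. The same-number pairs of IP libraries had correlations of deviations from -0.04 to 0.32, and 6 of 9 libraries correlated best with their own number. Pairs of Rep3 libraries stood at 0.283, 0.305 and 0.321. The main fits between IP groups did not take the numbers as pairs, so differences by number stayed in their spread. With the replicate block 0 members were called in each comparison of IP groups, and the log2FC of C4b in cocaine against saline was 0.00.

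Signs of uncalled differences turned. Without the 3 Rep3 libraries, cocaine against saline was 0.25 for C1qb and 0.35 for C4b, and cocaine against yoked was 0.74 for C1qa and 0.03 for Serping1, beside the values given above. With single libraries left out, cocaine against saline ranged from -0.56 to 0 for C1qa, -0.15 to 0.2 for C1qb, -1.43 to 0.99 for C3 and -0.35 to 0.27 for C4b. Yoked against saline ranged from -0.91 to 0.21 for C1qa, -0.77 to 0.07 for C1qb, -0.36 to 0.23 for C1qc, -0.36 to 0.45 for C1ra, -0.46 to 0.2 for C4b and -0.33 to 0.01 for Cfb. Cocaine against yoked ranged from -0.44 to 0.69 for C1qa, -0.12 to 0.74 for C1qb, -0.12 to 0.08 for Serping1 and -0.27 to 0.46 for C4b. Rep3 against the others ranged from -0.1 to 0.81 for C1qa and -0.12 to 0.42 for C1qc. The cause was not tested. A strict count minimum of 50 left no value for C3.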

Other observations

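Some complement genes outside the 8 members differed by replicate number. Of 27 tested, 7 were higher and 2 lower in the Rep3 IP libraries than in Rep1 and Rep2, where 15.6% of all genes were called. The synaptic proteins Csmd2 (log2FC 1.08 ± 0.14) and Csmd1 (0.90 ± 0.15) and the membrane regulator Susd4 (0.57 ± 0.12) were higher, as were the soluble regulator Vtn (0.63 ± 0.10), the collectin Colec12 (0.54 ± 0.11), properdin (Cfp, 1.78 ± 0.56) and the integrin chain Itgax (2.91 ± 0.70). The terminal component C7 (-1.23 ± 0.39) and C1qbp (-0.40 ± 0.11), a mitochondrial protein that binds C1q, were lower. The largest of these differences rest on few reads: 0 to 57 per IP library for Itgax, 2 to 51 for Cfp and 17 to 66 for C7. The edgeR adjusted p lay between 0.000422 (Csmd2) and 0.0447 (Cfp). Markers of border macrophages, another source of complement in the meninges, had 0 of 9 called against input in edgeR (Cd163 and Lyve1 had an unadjusted p of 0.0193 and 0.0286), where 11.3% of all genes were called and 25.1% had an unadjusted p under 0.05, with a median of -0.03, and summed to between 7.27 and 11.6 CPM in the IP libraries and 11.5 CPM in the input.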
